A study of Drosophila melanogaster with 18 samples.

Results

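The Bomanins are small secreted immune peptides of Drosophila. The genes described here are 7 of them, taken by name: IM1, IM2, IM3, IM23, CG15067, CG18107 and CG16836. Each name was looked up among the gene names deposited with the Illumina values, and the same gene identifier was then taken from the Nanopore values. All 7 were found among the 17972 genes measured with Illumina and among the 13969 measured with Nanopore. The annotation holds 12 Bomanin genes, so 5 others (CG43202, CG15065, CG15068, CG5778 and CG5791) serve as the nearest relatives.

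RNA came from whole flies of 3 genotypes. The dec2P384R flies carried the GR23E10-gal4 driver with UAS-dec2P384R, the dec2WT flies carried the same driver with UAS-dec2WT, and the driver control, labelled WT, carried GR23E10-gal4 alone. Every fly in the comparisons therefore carries the driver, which marks a small set of neurons, whereas the RNA is that of the whole animal. Among those neurons are sleep-promoting cells of the dorsal fan-shaped body. Flies were held at 25 °C with 12 h of light and 12 h of darkness, were collected 3 h after lights on, and were extracted in lots of about 70. Each genotype has 3 libraries per platform, 18 in all, which the labels call biological replicates. The labels give neither age nor sex. They do not say whether both platforms used the same RNA.

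Toll is one of the main immune pathways of flies. Fungi and many Gram-positive bacteria trigger it, the receptor Toll is activated by its ligand Spätzle, and NF-kappaB factors then switch on effector genes in the fat body, the fly's counterpart of liver and adipose tissue. The fat body releases the peptides into the hemolymph. Bomanins are among the most strongly induced Toll targets, and flies that lack the gene cluster survive such infections poorly. Short-form Bomanins (S) consist of little more than the shared Bomanin motif, tailed ones (T) carry an extension after it, and bicipital ones (Bc) carry a pair of motifs joined by a linker. Dec2 is a transcriptional repressor of the basic helix-loop-helix class, and its P384R form is known from human families with short sleep.

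All 7 genes lie on chromosome arm 2R. Coordinates are as deposited, and those of all 12 family genes were identical in Ensembl release BDGP6.54. The 4 short-form genes among them are IM1 (BomS1, FBgn0034329, 18383949 to 18384378, plus strand), IM2 (BomS2, FBgn0025583, 18386602 to 18387030, plus), IM3 (BomS3, FBgn0040736, 18387895 to 18388734, plus) and CG18107 (BomS4, FBgn0034330, 18384567 to 18384911, plus). CG16836 (BomT2, FBgn0040735, 18388995 to 18389443, plus) is the tailed one. The bicipital genes are IM23 (BomBc1, FBgn0034328, 18382704 to 18383235, minus) and CG15067 (BomBc2, FBgn0034331, 18384824 to 18385589, minus). Coding sequences hold 39 codons in IM3, 45 in IM1, IM2 and CG18107, 76 in CG16836, 117 in IM23 and 154 in CG15067, and each gene has 2 exons. The whole cluster spans 9237 nt and holds 10 Bomanin genes with no other measured gene between them, while CG5778 (BomT3) and CG5791 (BomBc3) lie on 3R.

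Neighbours stand close. IM1 ends 188 nt before CG18107 and starts 713 nt after IM23. CG18107 and CG15067 overlap by 88 nt on opposite strands, and 12 coding nt of CG18107 fall in that overlap. Whether the counting used strand is not given in the sources used here, so reads of those 88 nt cannot be assigned to one of the pair. How reads shared between the alike short-form genes were assigned is not given either, and their separate levels are uncertain to that extent.

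Illumina libraries held between 18057117 and 28293197 reads on genes and Nanopore libraries between 1922380 and 4659601 estimated counts. Behind the values of the 7 genes stood 33 to 7101 Illumina reads and 46.0 to 3732 Nanopore counts per gene and library. No 2 libraries of a genotype were the same data. The transgenes themselves were not analysed here. The receptor gene mthl8 was listed at 0 in all 6 driver control libraries and had at least 205 Illumina reads or 13.0 Nanopore counts in each of the 12 transgenic ones, so the transgenes and other differences between the strains cannot be told apart. Markers of photoreceptors (ninaE), neurons (elav), midgut (alphaTry) and fat body (apolpp) were present in every library of these whole animals. The male germline gene Mst87F stood at 381 to 556 FPKM. Of the yolk protein genes, Yp1 stood at 0.238 to 1.69, Yp2 at 0.201 to 2.29 and Yp3 at 4.90 to 8.73 FPKM. One Nanopore library, dec2WT replicate 1, stood apart in the clock gene tim with 248 CPM (counts normalised for library size with TMM scaling), against 29.0 to 43.0 CPM in the other Nanopore libraries.

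Illumina levels are in FPKM, that is fragments normalised for the length of the gene and for sequencing depth. The genes have only 281 to 769 exonic nt under paired reads of 150 nt, and the assignment of shared reads is not known. Levels of different genes therefore compare only roughly. In the driver control, CG15067 was highest at 234 ± 17.1 FPKM (SD, n = 3, as throughout), followed by IM3 at 208 ± 9.42, CG16836 at 190.0 ± 37.9, IM2 at 172 ± 16.7, CG18107 at 61.8 ± 10.8, IM1 at 51.1 ± 4.32 and IM23 at 42.4 ± 10.2 FPKM. CG15067 stood clear of IM3, and IM2 stood clear of CG18107. The other neighbours in that order had overlapping libraries. Flies of the driver control thus showed CG15067 on top, then IM3, CG16836 and IM2, and then CG18107, IM1 and IM23. All 7 were well expressed in these flies, with control means at the 84.9th (IM23) to 96.8th (CG15067) percentile of the genes tested. All 7 passed the filter on low values in both platforms, and on Illumina none needed one genotype to do so, because the lowest value in any library was 3.64 FPKM.

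The order differed in transgenic flies. In dec2P384R the sequence was CG15067 at 432 ± 103 FPKM, IM2 at 263 ± 77.4, IM3 at 261 ± 56.8, CG16836 at 222 ± 66.8, IM1 at 220.2 ± 33.3, CG18107 at 49.3 ± 13.9 and IM23 at 20.2 ± 5.23 FPKM. There the libraries of the first 5 overlapped from each gene to the next, and IM1 stood clear above CG18107. In dec2WT it was IM2 at 233 ± 43.7 FPKM, CG15067 at 225 ± 49.6, IM3 at 195 ± 37.9, CG16836 at 133 ± 25.3, CG18107 at 71.2 ± 16.2, IM1 at 70.6 ± 16.1 and IM23 at 6.86 ± 4.05 FPKM. IM23 was last in all 3 genotypes, and it stood clear below its neighbour in both transgenic ones. By percentile of genes tested, IM1 stood at 96.5 in dec2P384R, 90.4 in dec2WT and 87.1 in the driver control, whereas IM23 stood at 70.2 in dec2P384R, 43.0 in dec2WT and 84.9 in the driver control.

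**Figure D1:**
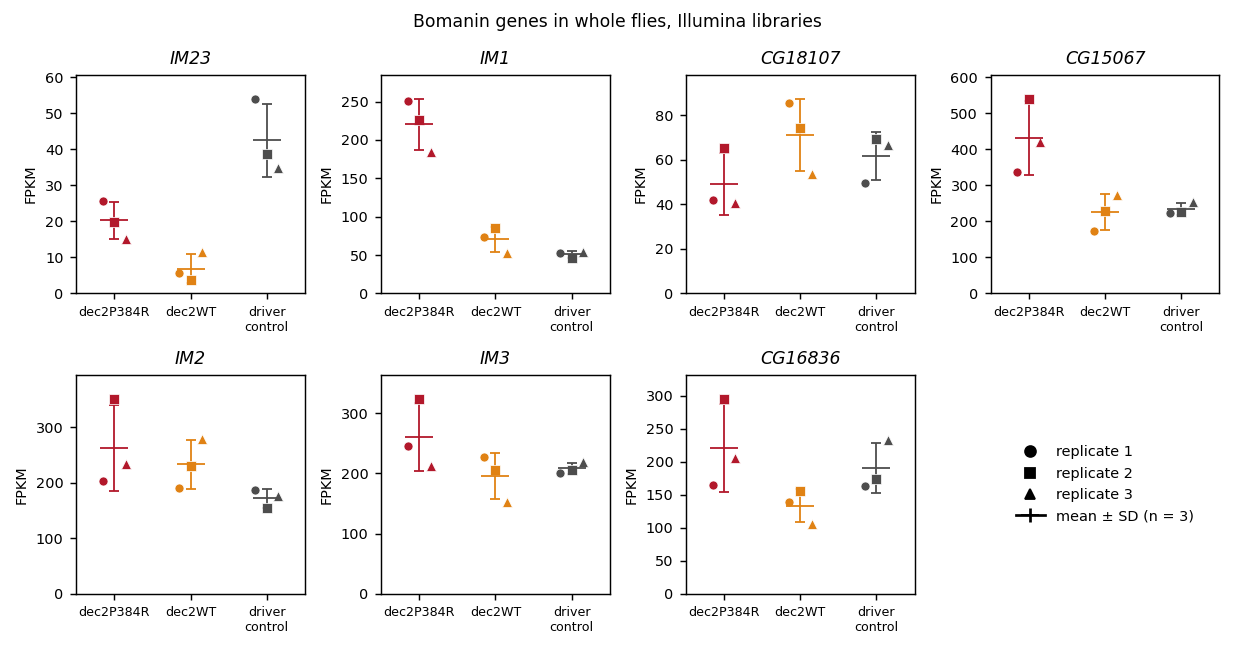
Illumina level of each gene in FPKM (y axis, from 0) by genotype (x axis); symbols are the 3 libraries and bars are the mean ± SD. The 3 dec2P384R libraries of IM1 (184 to 250.1 FPKM) lie above all 6 others, and the 3 driver control libraries of IM23 (34.6 to 53.9 FPKM) lie above all 6 transgenic ones.

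Setting dec2P384R against the driver control addresses how flies with the mutant transgene differ from flies without one. Among the short-form genes, IM1 rose. It had 250.1, 226 and 184 FPKM in the dec2P384R libraries, against 52.7, 46.2 and 54.3 FPKM in the driver control. The lowest mutant library was more than 3 times the highest control library, and the groups did not overlap. On the log2(FPKM + 0.5) scale the difference was 2.09 ± 0.17 (SE), or 4.26-fold, with a limma adjusted p of 8.8e-05. In RNA of whole flies, a change in the number of producing cells and a change in RNA per cell cannot be told apart.

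The other 3 short-form genes did not pass the test. IM2 had 203, 350.2 and 234 FPKM in dec2P384R, against 186, 153 and 175 FPKM in the driver control. Those groups did not overlap either, but the difference of 0.58 ± 0.20 (log2, SE) had a limma adjusted p of 0.209. By DESeq2 on the recovered reads IM2 passed (adjusted p = 0.048). IM3 had 245, 323 and 213 FPKM in dec2P384R, against 201, 205 and 219 FPKM in the driver control, a log2 difference of 0.30 ± 0.18 between groups that overlapped. CG18107 was the short-form gene with a negative difference, −0.34 ± 0.22, with 41.9, 65.3 and 40.6 FPKM in dec2P384R, against 49.5, 69.5 and 66.5 FPKM in the driver control.

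Of the bicipital genes, CG15067 rose. It had 336, 540.2 and 420 FPKM in dec2P384R, against 222, 227 and 254 FPKM in the driver control, and the groups did not overlap. The log2 difference was 0.86 ± 0.20 (SE), or 1.81-fold, with a limma adjusted p of 0.0453. That call was lost in 6 of the 9 omissions of 1 library. The limma adjusted p was 0.118, 0.158 and 0.101 without driver control replicates 1, 2 and 3. It was 0.112 and 0.101 without dec2P384R replicates 2 and 3, and 0.0782 without dec2WT replicate 2. The log2 difference stayed between 0.68 and 1.02 in all 9 omissions. With no filter on low values the adjusted p was 0.0712.

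IM23, the other bicipital gene, differed in the opposite direction without passing. Its dec2P384R libraries had 25.6, 19.9 and 15.2 FPKM, against 53.9, 38.6 and 34.6 FPKM in the driver control, with no overlap between the groups. The log2 difference was −1.05 ± 0.33 (SE) with a limma adjusted p of 0.162. It passed on other terms, with an adjusted p of 0.0133 by DESeq2 on the recovered reads, 0.0345 by limma on the 6 compared libraries alone and 0.0389 by limma without dec2WT replicate 3. The tailed gene CG16836 had 164, 295 and 205 FPKM in dec2P384R, against 163, 174 and 233 FPKM in the driver control, and its log2 difference was 0.20 ± 0.22.

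In all, 2 of the 7 genes rose in dec2P384R and none fell, against 1.63% of the 13418 genes tested that rose and 1.17% that fell (2.8% in either direction). The libraries of the genotypes did not overlap for 3 of the 7 with dec2P384R higher, against 8.16% of genes tested, and for 1 with dec2P384R lower, against 7.83%. The median log2 difference of the 7 was 0.30, and that of all genes tested was 0.00. The authors' deposited table of this Illumina comparison lists 244 genes, all changed at least 2-fold. In the authors' deposited table IM1 stands at a log2 fold change of 2.11 (adjusted p = 2.86e-32) and IM23 at −1.06 (adjusted p = 3.70e-04), and the other 5 genes are not listed there.

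Setting dec2WT against the driver control addresses how flies with the normal form of the transgene differ. This comparison shares the 3 driver control libraries with the one of dec2P384R. IM23 fell: it had 5.53, 3.64 and 11.4 FPKM in dec2WT, against 53.9, 38.6 and 34.6 FPKM in the driver control. The highest dec2WT library stood far below the lowest control library. The log2 difference was −2.66 ± 0.33 (SE), a 6.31-fold fall, with a limma adjusted p of 0.00155. Recovered reads of IM23 numbered 66, 33 and 114 in the dec2WT libraries, against 543, 496 and 362 in the driver control.

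IM1 did not pass in dec2WT. It had 73.4, 85.1 and 53.2 FPKM in dec2WT, against 52.7, 46.2 and 54.3 FPKM in the driver control, a log2 difference of 0.44 ± 0.17 with a limma adjusted p of 0.329, and the libraries overlapped. IM2 had 191, 229.6 and 278 FPKM in dec2WT, all above its 153 to 186 FPKM in the driver control, with a log2 difference of 0.43 ± 0.20 (limma adjusted p = 0.477). CG16836 had 139, 155 and 106 FPKM in dec2WT, all below its 163 to 233 FPKM in the driver control, with a log2 difference of −0.51 ± 0.22 (limma adjusted p = 0.416). CG15067, IM3 and CG18107 overlapped between these genotypes, with log2 differences of −0.08 ± 0.20, −0.11 ± 0.18 and 0.19 ± 0.22.

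Thus 1 of the 7 genes fell in dec2WT and none rose, against 1.39% of genes tested that fell and 1.22% that rose (2.61% in either direction). The libraries did not overlap for 1 gene with dec2WT higher, against 9.1% of genes tested, and for 2 with dec2WT lower, against 10.9%. Counts of 1 and 2 among 7 are not read as a result about these genes. The median of the 7 was −0.08 on the log2 scale and that of all genes tested was 0.00. In the authors' deposited table of this comparison, which lists 286 genes, IM23 stands at a log2 fold change of −2.62 (adjusted p = 1.25e-05) and is the one listed among the 7.

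Setting dec2P384R against dec2WT addresses what parts the mutant from the normal form, and it shares its libraries with both other comparisons. IM1 was again the gene that rose, with 250.1, 226 and 184 FPKM in dec2P384R, against 73.4, 85.1 and 53.2 FPKM in dec2WT. The log2 difference was 1.65 ± 0.17 (SE), or 3.14-fold, with a limma adjusted p of 0.00113. The lowest mutant library was more than 2 times the highest dec2WT library.

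Both bicipital genes were higher in every dec2P384R library than in any dec2WT library, and both missed the threshold. IM23 differed by 1.60 ± 0.33 and CG15067 by 0.94 ± 0.20 on the log2 scale, each with a limma adjusted p of 0.0691. On the recovered reads edgeR gave adjusted p values of 0.0469 and 0.0349 for them, and DESeq2 gave 1.27e-04 and 1.14e-04. Each gene passed in only 1 of the 9 omissions of 1 library. For IM23 it was that of dec2WT replicate 3, the dec2WT library with most IM23 (2.02, limma adjusted p = 0.00728). For CG15067 it was that of dec2P384R replicate 1 (1.10, limma adjusted p = 0.0379). Without dec2P384R replicate 2 the limma adjusted p was 0.270 for IM23 and 0.223 for CG15067. CG16836 was also higher without overlap, by 0.71 ± 0.22 (limma adjusted p = 0.317), while IM2 (0.15 ± 0.20), IM3 (0.41 ± 0.18) and CG18107 (−0.54 ± 0.22) overlapped.

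In all, 1 of the 7 rose and none fell, against 0.499% and 0.283% of genes tested (0.783% in either direction). The libraries did not overlap for 4 of the 7, all with dec2P384R higher, against 7.12% of genes tested that were higher and 6.16% that were lower. The median of the 7 was 0.71 on the log2 scale, beside 0.00 for all genes tested. The authors' deposited table of this comparison lists 93 genes, among them IM1 at a log2 fold change of 1.64 (adjusted p = 3.69e-15) and IM23 at 1.56 (adjusted p = 6.21e-04).

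**Figure D2:**
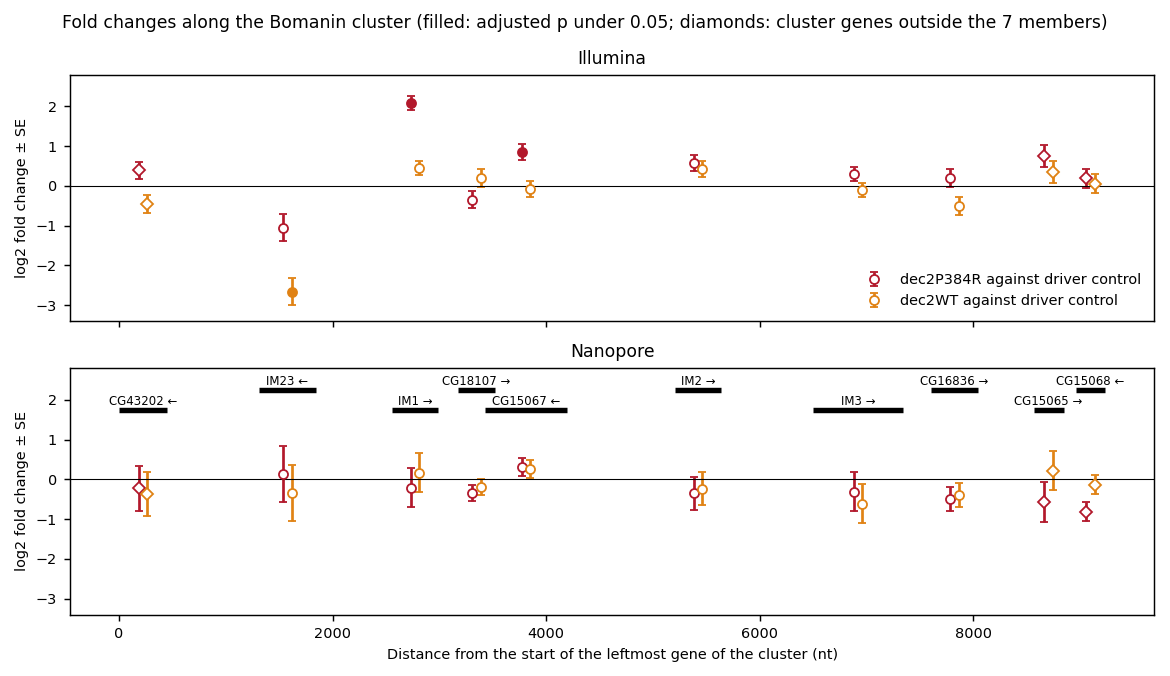
Log2 fold change ± SE against the driver control (y axis) along the cluster (x axis, nt from the start of the leftmost gene) for dec2P384R and dec2WT, with Illumina above and Nanopore below; black bars mark the genes and arrows their strand. IM1 at 2.09 in dec2P384R and IM23 at −2.66 in dec2WT stand out on Illumina although 713 nt part the genes, and no Nanopore point is filled.

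Along the cluster the changes did not run together on Illumina. IM23 and IM1 are neighbours on opposite strands, and their log2 differences from the driver control had opposite signs in both transgenic genotypes, where IM1 passed in dec2P384R and IM23 in dec2WT. CG18107, the next gene after IM1 on the same strand, had log2 differences of −0.34 and 0.19 in dec2P384R and dec2WT, against 2.09 and 0.44 for IM1. The ratio of IM23 to IM1 within a library, which no scaling between libraries can move, was 0.0825 to 0.103 in dec2P384R and 0.0429 to 0.214 in dec2WT, against 0.638 to 1.02 in the driver control. The ratio of IM1 to CG18107 was 3.47 to 5.96 in dec2P384R and 0.858 to 1.14 in dec2WT, against 0.664 to 1.06 in the driver control. Lengths of these genes differ, but the ratios compare FPKM values.

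None of the 5 other Bomanin genes passed in any Illumina comparison by limma, and 1 of them had an unadjusted p under 0.05 in dec2P384R against the driver control, as did 1 in dec2P384R against dec2WT. The short-form gene CG15065 (BomS5) had 64.0, 61.3 and 41.0 FPKM in dec2P384R, against 40.3, 29.9 and 26.9 FPKM in the driver control, a log2 difference of 0.76 ± 0.28 (limma adjusted p = 0.229). The tailed gene CG43202 (BomT1), leftmost in the cluster, had 7.53, 15.1 and 10.4 FPKM in dec2P384R, against 6.33, 4.90 and 5.89 FPKM in dec2WT, a log2 difference of 0.85 ± 0.22 (limma adjusted p = 0.164). The short-form gene CG15068 (BomS6) averaged 333 ± 75.7 FPKM in dec2P384R and 302 ± 66.3 FPKM in dec2WT, against 292 ± 74.6 FPKM in the driver control. The log2 differences of the 5 in dec2P384R against the driver control ran from −0.32 to 0.76.

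The Nanopore libraries, made as direct cDNA, were tested on their own. No member passed in any of the 3 comparisons by edgeR, and DESeq2 called none. The share of all 11393 genes called was also low, at 0.474% in dec2P384R against the driver control, 0.799% in dec2WT against the driver control and 0.132% in dec2P384R against dec2WT. The libraries overlapped between genotypes for all 7 genes in all 3 comparisons, where 16.9%, 15.4% and 11.3% of genes had no overlap.

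IM1 had 159.7, 135 and 456 CPM in dec2P384R and 200.1, 576 and 197 CPM in dec2WT, against 327, 364 and 177 CPM in the driver control. One library is high in each transgenic genotype, and the other 2 libraries of dec2P384R lie below all 3 of the driver control. The log2 difference was −0.20 ± 0.49 (SE) in dec2P384R and 0.17 ± 0.48 in dec2WT against the driver control, with edgeR adjusted p values of 0.924 and 0.950. IM23 had 35.3, 48.1 and 124 CPM in dec2P384R and 9.91, 119 and 22.0 CPM in dec2WT, against 86.4, 70.4 and 31.1 CPM in the driver control. Its log2 differences were 0.14 ± 0.70 and −0.34 ± 0.70 (edgeR adjusted p = 0.971 and 0.928). In dec2WT replicates 1 and 3 alone IM23 was below all driver control libraries, and replicate 2 was above them.

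CG15067 had 593, 602 and 961 CPM in dec2P384R and 609.6, 916 and 585 CPM in dec2WT, against 527, 657 and 573 CPM in the driver control, with log2 differences of 0.30 ± 0.23 and 0.27 ± 0.23. CG16836 had the most negative difference in dec2P384R, −0.50 ± 0.30 (edgeR adjusted p = 0.565), with 213, 215 and 417 CPM in dec2P384R, against 365, 467 and 367 CPM in the driver control. IM3 had the most negative one in dec2WT, −0.61 ± 0.49 (edgeR adjusted p = 0.759), with 426, 853 and 321 CPM in dec2WT, against 869.6, 1059 and 513 CPM in the driver control. For IM2 and CG18107 the log2 differences were −0.35 ± 0.41 and −0.34 ± 0.20 in dec2P384R and −0.24 ± 0.41 and −0.18 ± 0.20 in dec2WT. Between dec2P384R and dec2WT the 7 differences ran from −0.37 (IM1) to 0.48 (IM23). The authors' deposited Nanopore tables put none of the 7 under an adjusted p of 0.05 in any comparison, and the smallest value in those deposited tables is 0.745 for CG16836 in dec2P384R against the driver control. A p that misses the threshold with standard errors of this size does not show that the genotypes are alike.

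**Figure D3:**
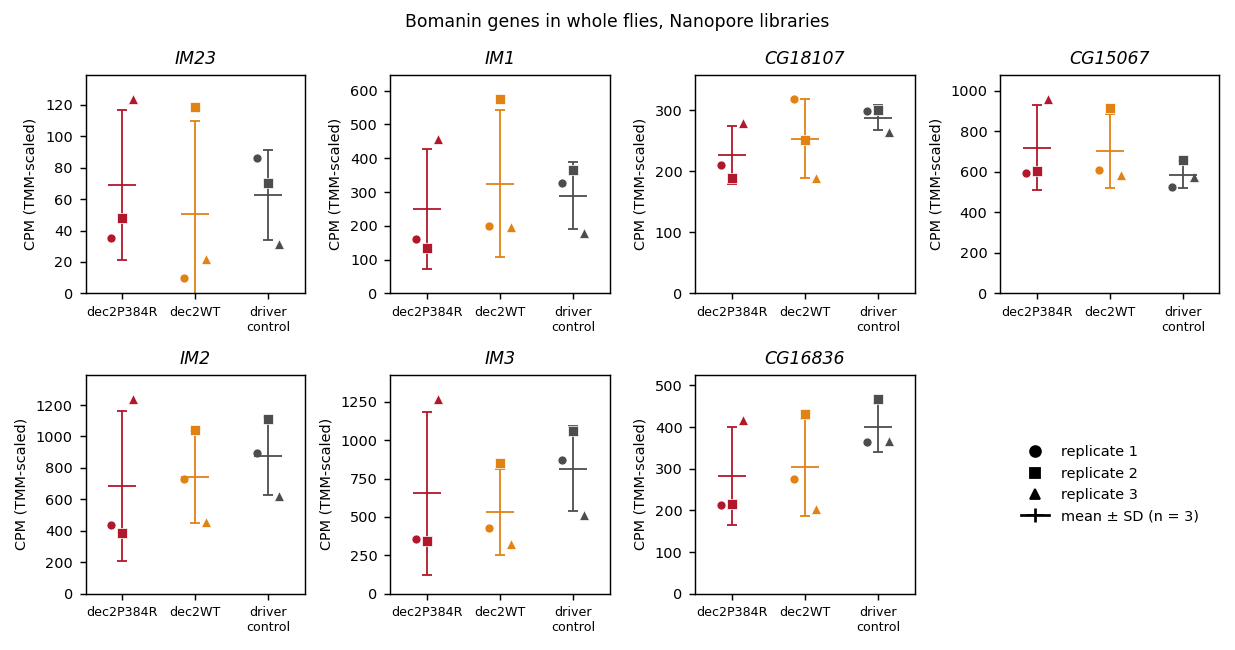
Nanopore level of each gene in TMM-scaled CPM (y axis, from 0, where an error bar that runs below is cut) by genotype (x axis); symbols are the 3 libraries and bars are the mean ± SD. The triangle of dec2P384R replicate 3 is the highest of its genotype in all 7 panels, as with 456 CPM of IM1 beside 159.7 and 135.

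**Figure D4:**
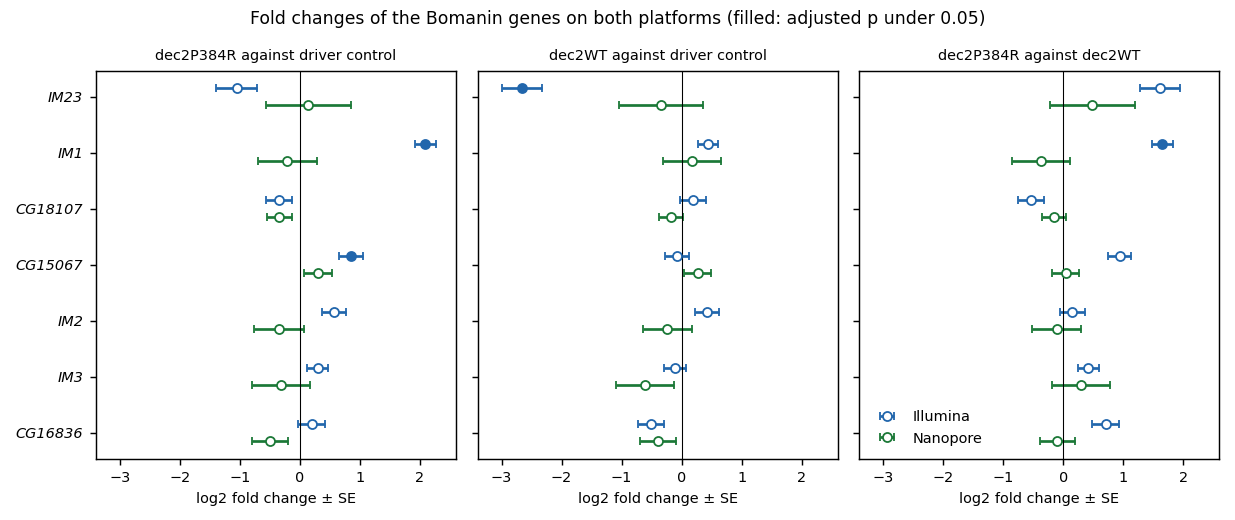
Log2 fold change ± SE (x axis) of each gene (rows) in the 3 comparisons, Illumina in blue and Nanopore in green; filled points have an adjusted p under 0.05. IM1 in dec2P384R against the driver control lies at 2.09 on Illumina and −0.20 on Nanopore.

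Of the 5 other Bomanin genes, CG15068 had the lowest Nanopore p in dec2P384R against the driver control. It had 751, 705 and 1004 CPM in dec2P384R, against 1402, 1801 and 1130.4 CPM in the driver control, with no overlap. The log2 difference was −0.81 ± 0.24 with an edgeR adjusted p of 0.219, while the authors' deposited table gives −0.80 with an adjusted p of 0.0149.

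The difference between platforms was tested itself, as an interaction of platform and genotype over all 18 libraries and 12420 genes. For IM1 the Illumina log2 difference between dec2P384R and the driver control exceeded the Nanopore one by 2.46 ± 0.56 (SE), with an unadjusted p of 0.000336 and a limma adjusted p of 0.22. This missed the threshold, and no member passed in any comparison. Of all genes tested, 0.0725% passed in dec2P384R against the driver control, 0.0886% in dec2WT against the driver control and 0.0403% in dec2P384R against dec2WT. Over the 18 omissions of 1 library the IM1 value ran from 2.12 to 3.02, and only 1 omission passed. That was the one of Nanopore dec2P384R replicate 3 (3.02, limma adjusted p = 0.0106). Without Nanopore dec2P384R replicate 2 the limma adjusted p was 0.735. Against dec2WT the IM1 value was 2.07 ± 0.56 (limma adjusted p = 0.622). For IM23 in dec2WT against the driver control the platforms differed by −1.69 ± 0.89 (limma adjusted p = 0.998).

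On Nanopore, most of the 7 genes shared their highest library within a genotype. There dec2P384R replicate 3 was the highest of its 3 libraries for 7 of 7 members, where it was the highest for 35.1% of the 11393 genes. The same library was highest for 5 of the 5 other Bomanin genes, 9 of 11 other genes listed as Toll effectors and 9 of 10 Imd effector genes. In dec2WT replicate 2 and in driver control replicate 2, 6 of the 7 were highest, where 32.5% and 35.1% of genes were. Of the listed effectors, dec2WT replicate 2 was highest for 6 of 11 Toll and 9 of 10 Imd genes. Driver control replicate 2 was highest for 6 of 11 Toll and 2 of 10 Imd genes. On Illumina the strongest case for the members was dec2P384R replicate 2, highest for 5 of 7 members against 36.2% of genes. It was also highest for 9 of 10 Toll and 8 of 12 Imd effectors. IM1 and IM23 are the members outside that pattern, both highest in dec2P384R replicate 1. The Imd effectors did not always go with the members on Illumina. In dec2WT replicate 3, 10 of 12 Imd effectors but 3 of 7 members were highest, where 33.7% of genes were. In driver control replicate 1 it was 8 of 12 and 2 of 7, where 37.6% of genes were.

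Each gene was also given as a share of the summed level of the 7 in the same library. A share removes a swing only as far as the genes swing in equal proportion. The sum was 1266 to 1820.3 FPKM in dec2P384R and 894 to 984 FPKM in dec2WT, against 914 to 1037 FPKM in the driver control. On Illumina IM1 made up 19.8%, 12.4% and 14.0% of it in dec2P384R and 8.21%, 8.64% and 5.74% in dec2WT, against 5.68%, 5.05% and 5.24% in the driver control. The genotypes do not overlap in that share. IM23 made up 2.02%, 1.09% and 1.16% in dec2P384R and 0.618%, 0.370% and 1.23% in dec2WT, against 5.81%, 4.23% and 3.34% in the driver control, where the lowest value exceeds all transgenic ones. Without IM1 and IM23 the other 5 genes summed to 991 to 1574 FPKM in dec2P384R and 815 to 895 FPKM in dec2WT, against 821 to 948 FPKM in the driver control.

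On Nanopore the shares overlapped. IM1 made up 7.07% to 9.61% of the summed CPM in dec2P384R and 7.78% to 13.7% in dec2WT, against 6.97% to 9.70% in the driver control. IM23 made up 1.76% to 2.61% in dec2P384R and 0.385% to 2.83% in dec2WT, against 1.22% to 2.57% in the driver control. CG15067 made up 20.3% to 31.5% in dec2P384R and 21.9% to 29.7% in dec2WT, against 15.6% to 22.5% in the driver control. Swings remained in the shares. In dec2P384R replicates 1, 2 and 3, IM3 made up 17.7%, 17.8% and 26.7% and CG18107 10.5%, 9.87% and 5.89%.

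**Figure D5:**
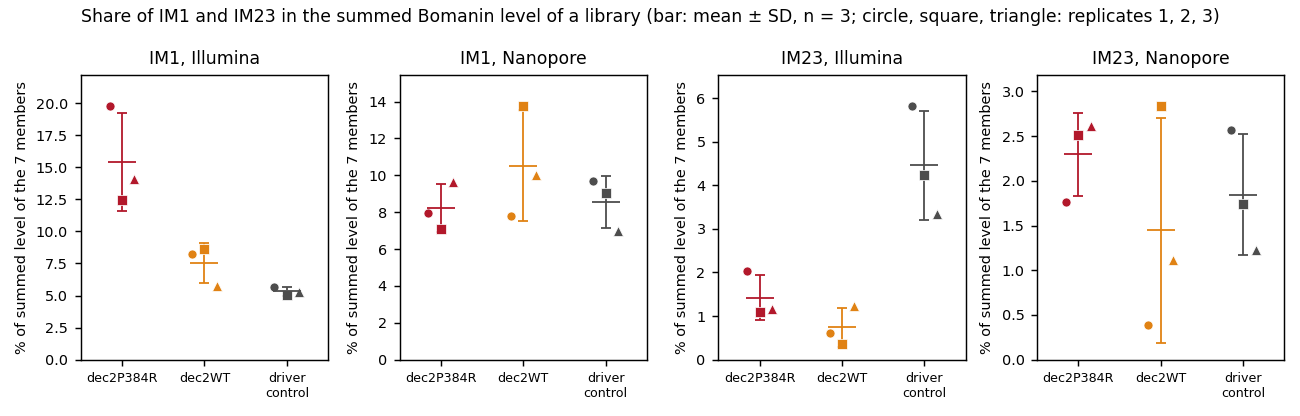
Share of IM1 and of IM23 in the summed level of the 7 genes (y axis, percent, from 0) by genotype (x axis) on both platforms; symbols are the 3 libraries and bars are the mean ± SD. The IM1 share on Illumina is 12.4% to 19.8% in dec2P384R, above every other library, and on Nanopore the genotypes overlap.

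Other genes of the pathway were counted from a list. Of 20 genes of Toll signalling, from the recognition proteins PGRP-SA and GNBP1 through the ligand spz and the receptor Tl to the NF-kappaB genes Dif and dl, 0 passed in any Illumina or Nanopore comparison. Of 10 genes listed as Toll effectors other than Bomanins and tested on Illumina, CG13749 rose in dec2P384R and none fell. It had 3.60 ± 1.25 FPKM in dec2P384R and 1.37 ± 0.48 FPKM in the driver control (log2 1.12 ± 0.26, limma adjusted p = 0.0452). In dec2WT it was CG33470 that rose, with 33.7 ± 14.2 FPKM in dec2WT and 12.5 ± 1.67 FPKM in the driver control (log2 1.32 ± 0.28, limma adjusted p = 0.0323). Both belong to the Baramicin family (BaraB and BaraA1), of which BaraA1 encodes a Toll-induced precursor of antifungal peptides and has a near-identical duplicate that can share its reads. CG13749 was listed as a member of that family, and whether Toll induces it was not tested. The medians over the 10 were 0.52 in dec2P384R and 0.28 in dec2WT, beside 0.00 for all genes tested. On Nanopore 0 of 11 passed, with medians of −0.06 and −0.07. Metchnikowin (Mtk), an antifungal peptide, did not pass. On Illumina it had 30.8, 102 and 44.5 FPKM in dec2P384R, against 38.5, 9.93 and 16.5 FPKM in the driver control. It was highest in the dec2P384R library where most Bomanins were highest. On Nanopore its values were 32.3, 49.7 and 210.5 CPM in dec2P384R, against 217, 157 and 85.1 CPM in the driver control.

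Effectors of the Imd pathway, which Gram-negative bacteria trigger, were counted as a contrast. On Illumina 2 of 12 rose in dec2P384R: the cecropin genes CecA2 (12.3 ± 4.77 FPKM in dec2P384R and 3.54 ± 1.23 FPKM in the driver control, limma adjusted p = 0.0101) and CecA1 (153 ± 33.4 FPKM in dec2P384R and 95.5 ± 6.88 FPKM in the driver control, limma adjusted p = 0.0357). CecA2 also rose in dec2WT (11.5 ± 2.31 FPKM in dec2WT and 3.54 ± 1.23 FPKM in the driver control, limma adjusted p = 0.012). Near-identical cecropin genes can share reads, so their separate values are uncertain. On Nanopore 0 of 10 passed. The medians over the 12 on Illumina were 0.96 in dec2P384R and 1.30 in dec2WT, beside 0.00 for all genes tested. Those over the 10 on Nanopore were −0.40 and −1.02. Of 12 Imd signalling and regulator genes, PGRP-SC2, which degrades peptidoglycan, rose in dec2P384R on Illumina (log2 1.06 ± 0.18, limma adjusted p = 0.00894) and on Nanopore (1.18 ± 0.14, edgeR adjusted p = 0.0012), and the adaptor gene Fadd fell in dec2P384R (−0.58 ± 0.12, limma adjusted p = 0.0283) and in dec2WT (−0.71 ± 0.12, limma adjusted p = 0.00972) on Illumina.

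Markers of the tissues that make these peptides were counted too. Of 9 fat body markers, the lipid droplet gene Lsd-1 rose in dec2P384R on Illumina (182 ± 21.7 FPKM in dec2P384R and 129 ± 2.46 FPKM in the driver control, limma adjusted p = 0.0452), and 8 did not pass. Their summed level was 1342 to 2494 FPKM in dec2P384R and 1536 to 2108 FPKM in dec2WT, against 1385 to 1948 FPKM in the driver control, and none was at 0 in every library. Of 7 hemocyte markers, NimC1 fell in dec2P384R (−0.62 ± 0.13, limma adjusted p = 0.0235) and in dec2WT (−0.65 ± 0.13, limma adjusted p = 0.0208), with sums of 38.6 to 49.7 FPKM in dec2P384R and 44.1 to 46.0 FPKM in dec2WT, against 43.6 to 52.3 FPKM in the driver control. No fat body or hemocyte marker passed on Nanopore. Of 8 markers of other tissues, the cuticle gene Cpr72Ec rose and the midgut trypsin gene alphaTry fell in dec2WT on Illumina, and alphaTry fell there on Nanopore. Of 4 female and 6 male markers tested on Illumina, 0 passed in any comparison. The part of these markers in the Bomanin results was not tested.

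The genes whose Illumina levels were most like those of a member were sought outside the Bomanin family among 10707 genes with a mean of at least 2 FPKM, by Pearson's r over the 9 libraries, which are 3 of each genotype on a shared scale. Most like IM1 were CG3568 (r = 0.97), CG13324 (0.96) and the small heat shock protein gene Hsp27 (0.94), whose r with IM1 over the 9 Nanopore libraries was −0.20, −0.16 and −0.24. Most like IM23 were CG11802 (0.95), CG9662 (0.95) and CG32640 (0.94), with 0.60, 0.17 and 0.48 on Nanopore. For IM3 they were CG43319 (0.97) and the ribosomal protein genes RpL29 (0.96) and RpL39 (0.96), with 0.14, 0.91 and 0.82 on Nanopore. RpL29 and RpL39 had the highest Nanopore r of the 21 genes chosen in this way.

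For the remaining members the closest genes were Spn28B, eEFSec and CG7785 for IM2 (0.95 to 0.96), CG18528, CG9919 and rogdi for CG18107 (0.90 to 0.94), lncRNA:CR43432, Snx6 and GstT4 for CG15067 (0.94 to 0.95), and Aos1, CG30160 and CG34242 for CG16836 (0.92 to 0.97). Their Nanopore r lay between −0.59 (Spn28B with IM2) and 0.53 (eEFSec with IM2), and lncRNA:CR43432 has no Nanopore value here. With 9 points and so many genes compared, values of this size are a description.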

How the data were processed

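The members and gene lists were chosen with earlier results of these data known. Per the labels' protocols, Illumina reads were paired and 150 nt long, and direct cDNA was sequenced with Nanopore. The Illumina table as deposited by the authors holds FPKM; with gene length and 1 constant per library, 100.0% of its values turned into whole reads (tolerance 1e-06), and edgeR and DESeq2 were run on these recovered counts as alternatives. The Nanopore table as deposited holds estimated counts (55.1% not whole), rounded here. The authors' deposited comparison tables give a log2 fold change and an adjusted p-value per gene, and their Illumina versions list only changes of at least 2-fold. Tools named in the submitters' processing notes, with no role or order, are minimap2, Salmon, HISAT2, DESeq2 and featureCounts 1.5.0-p3; build and strand setting are not given in the sources used here. Another 36 columns of values per library were not used. Of the Illumina genes, 219 were models without an annotated identifier. An Illumina column with the digits of P384R exchanged was used as dec2P384R replicate 2, which the rest of its name matches.

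For Illumina, limma 3.58.1 with a trended empirical Bayes prior was fitted to log2(FPKM + 0.5) of the 13418 genes that reached 0.5 FPKM in 3 or more of the 9 libraries. Such fold changes understate those of low genes. Nanopore counts were tested with edgeR 4.0.16 (TMM, filterByExpr, quasi-likelihood F-test) over 11393 genes, with standard errors derived from F. The platforms were compared with limma's voom with quality weights. All libraries of a platform, or all 18, entered 1 two-sided model, with Benjamini-Hochberg adjustment over all genes tested and a threshold of 0.05 (R 4.3.3, DESeq2 1.42.0). The fits were tested on simulated data, whose spread was a set value and not that of these genes. There the test between platforms recovered 4% of log2 changes of 1 and 67% of changes of 2. A miss in that test therefore does not show that the platforms are alike. The labels call the replicates independent and say no more, and p-values measure the spread between these samples.

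Deviations from the group means of same-numbered libraries correlated at 0.39, 0.18 and 0.43 for Illumina dec2P384R and driver control. This hint of a pairing comes from the data, and the labels do not state one. The main fits used no pairing, and a replicate block was fitted as an alternative. Named genes were all members, the other Bomanin genes, list members past the threshold and the 3 genes most like each member; Mtk, mthl8, tim and the marker genes of the library checks were named for context. A list of other Bomanin genes had held CG15067, itself a member, and a gene that is no Bomanin; the 5 annotated others were used. Alternatives were other pseudocounts, filters, scalings, tools, a replicate block and leaving out each library.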

Additional observations from a re-analysis of the deposited data

How the results depend on the processing

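IM1 in dec2P384R against both other genotypes and IM23 in dec2WT against the driver control kept direction and call in all 18 alternatives each on Illumina. In dec2P384R against the driver control, 2 members passed, against 1 with no filter on low values, 4 by DESeq2 on the recovered reads (IM1, CG15067 and IM2 higher, IM23 lower), 3 with the 6 compared libraries alone and 1 to 3 when 1 library was left out. In dec2P384R against dec2WT, 1 passed, against 3 by edgeR on the recovered reads, 3 with median-of-ratios factors, 3 by DESeq2, 2 with the replicate block, where CG15067 also passed (limma adjusted p = 0.0199), and 1 to 2 when 1 library was left out. In the test between platforms, 0 to 1 member passed in dec2P384R against the driver control when 1 library was left out. The cause of these moves was not tested. The replicate block changed no other call: with it 2 members passed in dec2P384R and 1 in dec2WT against the driver control on Illumina, and 0 on Nanopore or between platforms. Illumina dec2P384R and driver control were the one comparison with same-number correlations over 0.1 in every pair; in Illumina dec2P384R against dec2WT each library correlated best with its own number, a hint from the data alone, and in the other comparisons not all did.

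Directions turned only when a library was left out, and only for differences that had not passed. Ranges of the log2 difference over those omissions were −0.030 to 0.39 for CG16836 in dec2P384R against the driver control, −0.23 to 0.10 for CG15067 and −0.23 to 0.053 for IM3 in dec2WT against the driver control, and −0.076 to 0.31 for IM2 in dec2P384R against dec2WT, all on Illumina. On Nanopore they were −0.57 to 0.45 for IM23 and −0.97 to 0.10 for IM1 in dec2P384R against the driver control. In dec2WT against the driver control they were −1.99 to 0.17 for IM23, −0.54 to 0.44 for IM1 and −0.56 to 0.030 for IM2. In dec2P384R against dec2WT they were −0.23 to 2.14 for IM23, −1.14 to 0.34 for IM1, −0.34 to 0.042 for CG18107, −0.23 to 0.28 for CG15067, −0.85 to 0.22 for IM2, −0.62 to 0.82 for IM3 and −0.50 to 0.25 for CG16836. Between platforms, IM23 in dec2P384R against dec2WT ran from −0.37 to 1.46. With 1 library left out of a group, the remaining 2 share the spread of the other groups.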
